A study of Mus musculus with 12 samples.

Results

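The proteasome genes of mouse lung endothelial cells (MLECs) were examined in 12 RNA-seq libraries. The members were taken by name: every protein-coding gene of the deposited table whose mouse symbol begins with Psm, a letter from a to g and a number, leaving out the 3 immunoproteasome genes Psmb8, Psmb9 and Psmb10. This gave 48 of the 28689 genes. Of these, 31 encode the standard subunits of the 20S core and of the 19S regulatory particle. The other 17 are 7 assembly chaperones, 6 activator or inhibitor genes, 2 core subunits known from testis or thymus (Psma8 and Psmb11), and Psmc3ip and Psme3ip1, which are named for a partner of theirs and are not subunits.

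The 6 dKO libraries came from VE-CAD-CreERT2+/Sp1 fl/fl/Sp3 fl/fl mice given tamoxifen, in which Cre is driven by the VE-cadherin promoter. The 6 control (CTR) libraries came from littermate VE-CAD-CreERT2-/Sp1 fl/fl/Sp3 fl/fl mice given the same agent, so both groups carried the floxed alleles and tamoxifen but only dKO carried the recombinase. The labels call the CTR genotype WT. Per the study's methods the cells were taken from lungs of adult mice by bead selection for CD31 and then ICAM2 and used at an early passage. All animals of the study were male and aged 6 to 8 weeks per its reporting form, while its text gives older ages for some experiments. For the mice that gave the lung cells the text says only that they were adult. No number of mice per library was given, so the p-values measure the spread between libraries, which may be in part technical. In the deposited table the dKO columns carry the letters TAM, for an agent both groups received. They were matched by group and number.

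Values are FPKM, fragment numbers scaled to a length assigned to each gene and to library depth. How that length was set is not given, so levels of different genes compare only under it. The recovered depth was 15523054 to 17938286 fragments per library. The targeted gene Sp1 had 19.4 to 23.7 FPKM in CTR and 8.42 to 12.1 FPKM in dKO, 49.9% of the CTR mean (limma adjusted p = 5.68e-06). Sp3 had 24.2 to 31.1 and 22.5 to 26.9 FPKM, with a log2 fold change of -0.14 that did not pass the test (limma adjusted p = 0.0902). Where the deleted exons lie within either gene was not examined. All 10 endothelial markers were detected in every library. The summed macrophage markers were at 768 to 1349 FPKM in CTR and 2511 to 5673 in dKO, with 10 of 10 higher. Of 6 fibroblast markers tested, the collagens Col1a1, Col1a2 and Col3a1 were lower, Dcn was higher (log2 fold change 1.33) and Pdgfra and Thy1 were not called. Their sum with Lum, most of it from the collagens, was 2129 to 2696 FPKM in CTR and 828 to 1652 in dKO. Of 8 proliferation markers 5 were lower and none higher, with sums of 80.6 to 233 FPKM and 82.3 to 113 FPKM that overlapped. Because these were bulk libraries, fewer cells of a type and less RNA per cell cannot be told apart in any result that follows.

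The 26S proteasome is the enzyme complex that degrades ubiquitin-tagged proteins. Its 20S core is a stack of alpha and beta rings, with the cutting sites on Psmb5, Psmb6 and Psmb7 inside. The 19S particle caps the core, binds and unfolds substrates through its ATPase base and removes ubiquitin through its lid. Dedicated chaperones build both, and alternative caps such as PA28 (Psme1 with Psme2) can take the place of the 19S particle. The transcription factor Nfe2l1 (also called Nrf1) raises the subunit genes together when proteasome activity falls short, through antioxidant response elements (AREs) in their promoters. Sp1 and Sp3 bind GC boxes, which are common in promoters of housekeeping genes.

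Of the 48 members, 45 reached 1 FPKM in 6 or more libraries and were tested with limma on log2(FPKM + 1). Fold changes on this scale understate the change of low genes. At an adjusted p under 0.05, 14 of the 45 were called, or 31.1%, where 53.1% of all 12467 genes tested were called. This gap depended on the setting. With the replicate number added to the fit as a block, 53.3% of members and 55.8% of all genes were called. With no FPKM filter the shares were 25.0% and 26.3%. Of the 14 members, 6 rose in dKO (Psma6, Psmd8, Psmd10, Psme1, Psme2 and Psme2b) and 8 fell (Psma5, Psmb5, Psmd7, Psmd9, Psmf1, Psmg1, Psmg2 and Psmg4). Over all genes tested 20.4% were higher and 32.6% lower. The median log2 fold change was -0.03 over the 45 members and -0.10 over all genes, and the median of the absolute changes was 0.16 and 0.27. The split of directions depended on the scaling, with 13 members higher and 5 lower under median-of-ratios scaling and 9 higher and 6 lower under upper-quartile scaling. Over all 12467 genes, 3176 were higher and 3061 lower under the first scaling, and 2706 and 3767 under the second. The count of lower members was 5 without CTR replicate 3 or 6 or without dKO replicate 2, 3 or 4, and 13 without CTR replicate 4. Of the 14 called members, 10 kept their call in every alternative run in which they were tested, and Psma5, Psmd7, Psmd10 and Psmf1 lost it in some.

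**Figure D1:**
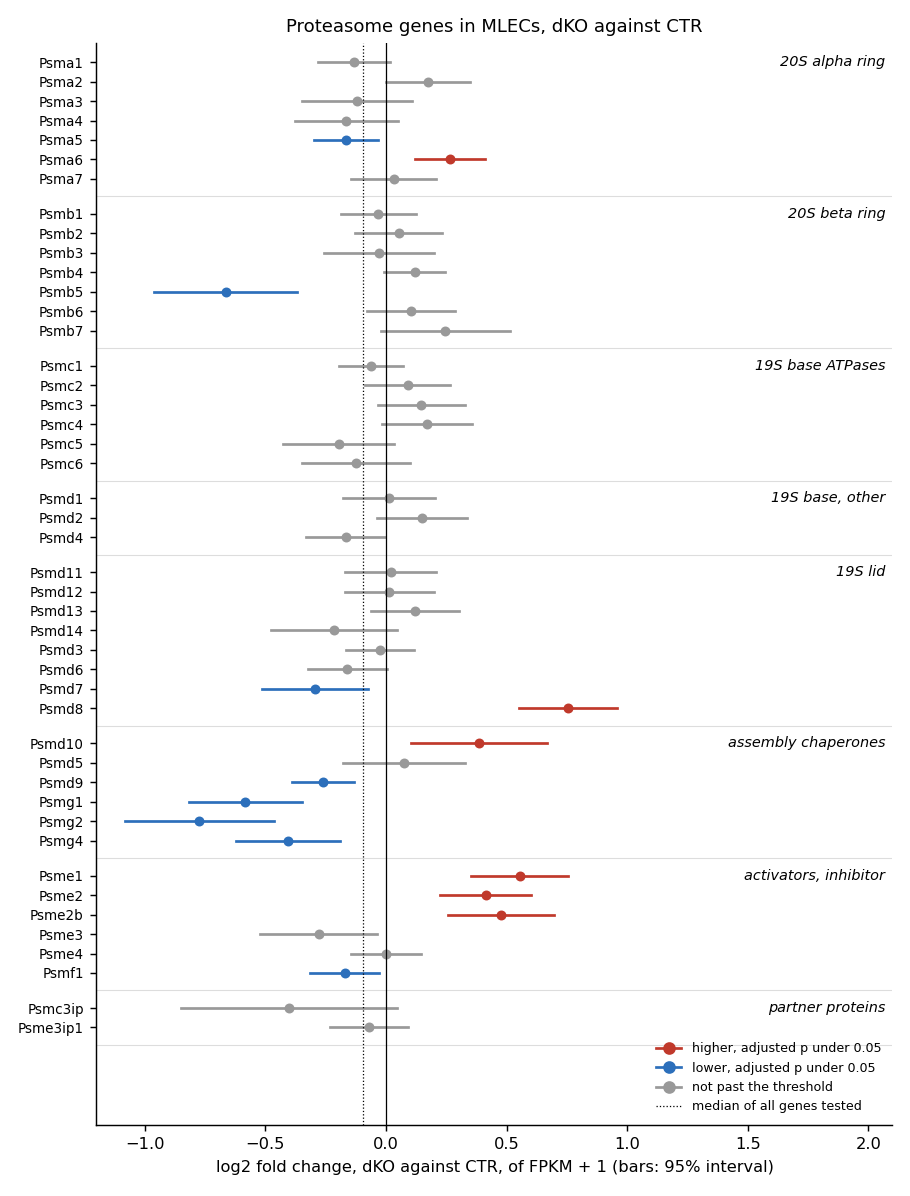
Log2 fold change of FPKM + 1, dKO against CTR (x axis), for the 45 tested proteasome genes by role, with 95% intervals and 6 libraries per group. Colour marks the 14 genes past an adjusted p of 0.05, and the dotted line is the median of all genes tested, at -0.10. The 3 points farthest from 0 are Psmg2 and Psmb5 on the lower side and Psmd8 on the higher side.

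The changes were small. Psmd8 was the member called higher by over 1.5-fold, where 8.92% of all genes tested were. Psmg2 and Psmb5 were called lower by over 1.5-fold, where 8.98% were, and Psmg1, with a log2 fold change of -0.58, fell just short of that size. Over the alternative runs the log2 fold change of Psmg1 lay between -0.69 and -0.50, on either side of it. With 0.1 added to FPKM in place of 1 it was -0.62. Libraries of the 2 groups did not overlap for 3 members on the higher side (Psmd8, Psme1 and Psme2) and 3 on the lower side (Psmg1, Psmg4 and Psmd9). Among all genes tested, 11.3% and 16.1% were separated in these directions. The study words its cutoff as 1.5 both on the log2 scale and as a plain fold, so both sizes were counted. No member passed an absolute log2 fold change of 1.5, which 1.98% of all genes did.

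By role, 5 of the 31 standard subunits were called, or 16.1%, and 9 of the 14 other tested members, or 64.3%, on either side of the 53.1% of all genes tested. The median log2 fold change of the 31 subunits was 0.01. The summed level of the 14 core subunits was 682 to 812 FPKM in CTR, with a median of 740, and 677 to 832 in dKO, with a median of 723. The summed 17 subunits of the 19S particle were at 711 to 878 FPKM, with a median of 801, and at 748 to 940 FPKM, with a median of 795. Both sums overlapped between the groups over most of their range.

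In CTR cells the 31 subunits spanned 17.8 to 146 FPKM on average. Psmb1, a non-catalytic beta subunit, led with 146 ± 8.01 FPKM (SD, n = 6), and Psmc1, an ATPase of the base, followed with 119 ± 8.34 FPKM. Their libraries did not overlap. The next in order were Psmb4 at 83.0 ± 3.50, Psmc5 at 80.6 ± 10.6, Psmd2 at 78.5 ± 8.64, Psma6 at 74.5 ± 5.05 and Psmb2 at 73.3 ± 4.63 FPKM, and each neighbouring pair among these overlapped. At the low end stood Psmb7 at 17.8 ± 1.88, Psmd11 at 17.98 ± 2.34 and Psmd1 at 18.4 ± 2.53 FPKM, which overlapped as well. Subunits present in equal numbers in the complex thus differed 8.24-fold in FPKM within the beta ring and 2.98-fold within the alpha ring. These folds depend on the length assigned to each gene. Psma6 and Psma3, the highest and lowest of the alpha ring, held 9418 and 9975 fragments in CTR. Psmb1 and Psmb7, those of the beta ring, held 15549 and 6231.

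**Figure D2:**
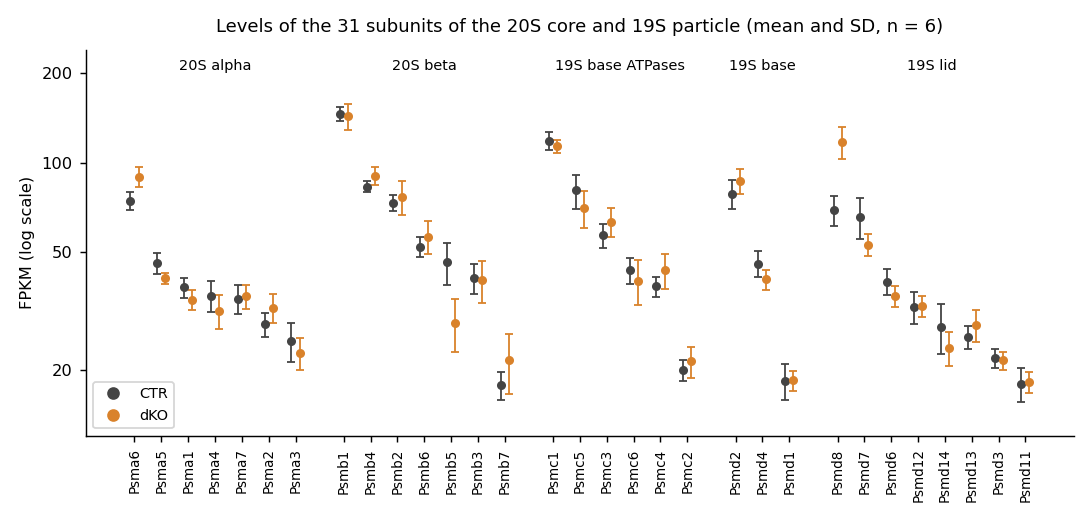
FPKM (log axis) of the 31 subunits of the 20S core and 19S particle, mean and SD of 6 CTR (grey) and 6 dKO (orange) libraries, ordered by the CTR mean within each class. Most pairs of points lie within their SDs. Psmb5 (46.1 against 28.8 FPKM), Psmd8 (69.3 against 118 FPKM) and, by less, Psma6 (74.5 against 89.7 FPKM) are set apart.

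Of the 7 alpha subunits, which form the gated outer rings of the core, 1 rose and 1 fell. Psma6 had 70.6, 72.6 and 83.5 FPKM (lowest, median and highest) in CTR and 80.5, 92.5 and 95.6 FPKM in dKO. The groups overlapped, with 4 dKO libraries above all CTR libraries, and the log2 fold change was 0.27 (SE 0.07, limma adjusted p = 0.00517). Psma5 had 41.6, 45.3 and 52.1 FPKM in CTR and 38.4, 40.9 and 43.6 FPKM in dKO, a log2 fold change of -0.16 (SE 0.06, limma adjusted p = 0.0379). This call was lost under upper-quartile and median-of-ratios scaling (limma adjusted p = 0.0538 and 0.316) and when any 1 of CTR replicates 1, 3 and 6 or dKO replicates 2 to 5 was left out (0.0544 to 0.0784). The other 5 alpha subunits had log2 fold changes of -0.16 (Psma4) to 0.18 (Psma2) and were not called. Psma3 shares a stretch of 665 identical bases with the processed pseudogene Gm13835, which itself held 4821 fragments in CTR and 4490 in dKO, so its level is uncertain. Psma5, with 6202 and 5519 fragments, has processed pseudogenes in the table as well. Gm12989 (97.3% identical over 656 bases) held 527 and 513 fragments, and Psma5-ps (99.0% over 729 bases) held 411 and 405. Fragments of Psma5 and these copies cannot be assigned with certainty.

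Of the 7 beta subunits, 1 fell and none rose. Psmb5 carries the chymotrypsin-like site, the target of the drug bortezomib. It had 34.8, 47.9 and 54.9 FPKM (lowest, median and highest) in CTR and 22.7, 27.8 and 38.3 FPKM in dKO. In 5 dKO libraries the value was under the CTR minimum, which was that of replicate 4. The log2 fold change was -0.66 (SE 0.14, 95% interval -0.96 to -0.37, limma adjusted p = 0.00141), with the dKO mean at 62.6% of the CTR mean. Processed copies of Psmb5 in the table held at most 12 fragments per group, against 4240 and 2653 for the gene.

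The other catalytic subunits did not pass the test. Psmb6, with the caspase-like site, had 47.9, 51.4 and 58.4 FPKM in CTR and 47.2, 55.4 and 68.1 FPKM in dKO, a log2 fold change of 0.10 with a 95% interval of -0.08 to 0.29. Psmb7, with the trypsin-like site, had 15.8, 17.4 and 20.9 FPKM in CTR and 16.4, 20.4 and 30.8 FPKM in dKO. Its log2 fold change was 0.25 with a 95% interval of -0.02 to 0.51, and it passed the test in 3 alternatives, among them without dKO replicate 4. Exons of Psmb7 share 46.8% of their bases with Nek6 on the other strand, and the strand setting of the counting was not given. Within a library, Psmb5 stood at 70.9% to 102% of Psmb6 in CTR and at 42.9% to 63.6% in dKO, with no overlap. Psmb5 was called lower, so this separation adds no support to its call. The structural subunits Psmb1, Psmb2, Psmb3 and Psmb4 had log2 fold changes of -0.03, 0.05, -0.03 and 0.12.

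The immunoproteasome subunits Psmb8, Psmb9 and Psmb10, which replace Psmb5, Psmb6 and Psmb7 in cells exposed to interferon, were all higher in dKO, with log2 fold changes of 0.98, 0.89 and 0.77. Psmb8 stood at 1.64% to 5.41% of Psmb5 in CTR and at 8.39% to 24.1% in dKO. Psmb9 stood at 1.54% to 4.40% of Psmb6 in CTR and at 3.49% to 9.42% in dKO, with 5 dKO libraries above all of CTR. Psmb10 stood at 54.5% to 132% of Psmb7 in CTR and at 79.6% to 158% in dKO, and these ranges overlapped. In each library the standard Psmb5 and Psmb6 were thus higher in FPKM than their replacements, while Psmb10 lay on either side of Psmb7. These ratios depend on the length assigned to each gene. Psmb10 held 2461 fragments in CTR and 4293 in dKO, and Psmb7 held 6231 and 7517.

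**Figure D3:**
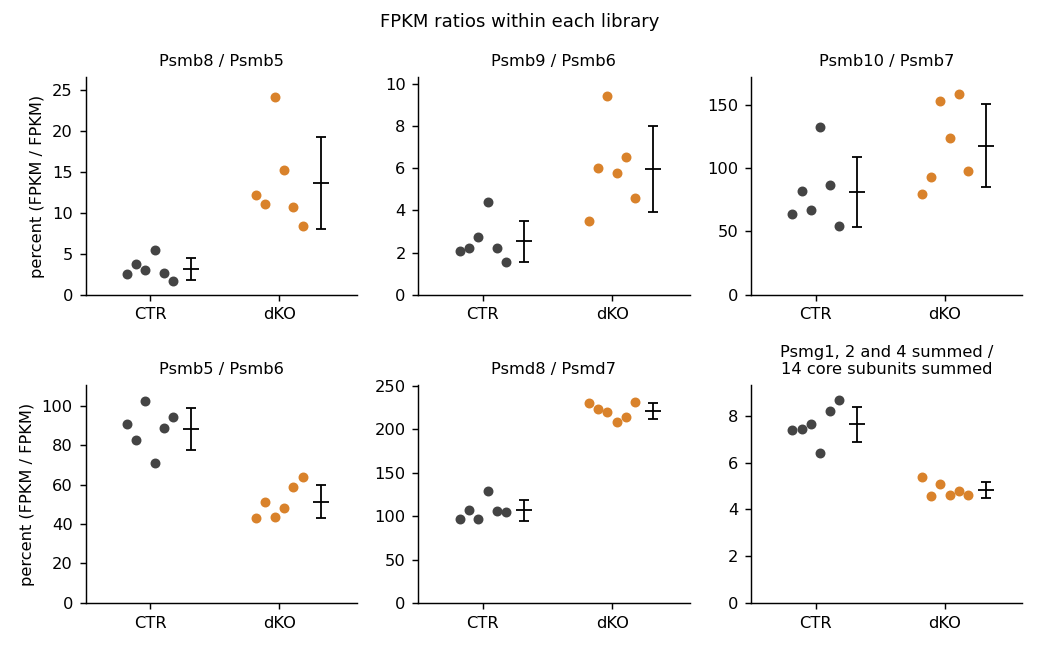
FPKM ratios, in percent, within each of the 6 CTR (grey) and 6 dKO (orange) libraries, with the mean and SD beside the points and all axes from 0. Psmb8 over Psmb5 was at most 5.41% in CTR and at least 8.39% in dKO, and Psmd8 over Psmd7 at most 129% and at least 209%. Psmg1, Psmg2 and Psmg4 summed over the core were at least 6.43% in CTR and at most 5.40% in dKO. Psmb8 and Psmd8 were called higher and Psmb5, Psmd7 and these 3 chaperones lower, so these separations add no support to the calls.

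No ATPase and no other base subunit was called. The 6 ATPases that unfold substrates (Psmc1 to Psmc6) had log2 fold changes of -0.20 (Psmc5) to 0.17 (Psmc4), and their 95% intervals reached from -0.42 to 0.36. The scaffold subunits Psmd1 and Psmd2 had log2 fold changes of 0.01 and 0.15, and the ubiquitin receptor Psmd4 one of -0.17 (limma adjusted p = 0.0793). Psmc5 shares 39.5% of its exon bases with Smarcd2 on the other strand.

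Of the 8 lid subunits, Psmd8 rose and Psmd7 fell. Psmd8, also called Rpn12, is a scaffold subunit of the lid that joins last in its assembly. It had 59.5, 68.1 and 83.9 FPKM in CTR and 102, 112 and 139 FPKM in dKO, so that every dKO library lay above every CTR library. The log2 fold change was 0.75 (SE 0.09, 95% interval 0.55 to 0.96, limma adjusted p = 3.69e-05), the largest rise among the members, with the dKO mean at 170% of the CTR mean. It rested on 3072 to 6713 fragments per library.

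Psmd7, also called Rpn8, pairs with the deubiquitinase Psmd14. It had 52.0, 67.3 and 80.4 FPKM in CTR and 49.0, 51.2 and 60.1 FPKM in dKO, with 3 dKO libraries below all CTR libraries. The log2 fold change was -0.29 (SE 0.10, limma adjusted p = 0.0277). This call was lost in 8 alternatives, among them median-of-ratios scaling (limma adjusted p = 0.0914) and leaving out CTR replicate 1, 3 or 6 or dKO replicate 2, 3 or 4 (0.0545 to 0.0569). Psmd14 itself had a log2 fold change of -0.22 with a 95% interval of -0.48 to 0.05. Within a library Psmd8 was at 96.5% to 129% of Psmd7 in CTR and at 209% to 232% in dKO. Because these were the lid genes called in opposite directions, this separation adds no support to either call. The other 5 lid subunits had log2 fold changes of -0.16 (Psmd6) to 0.12 (Psmd13).

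Among the members Psmg2, an assembly chaperone, had the largest fall. Of the 6 chaperones tested 4 fell and 1 rose, where 32.6% of all genes tested fell and 20.4% rose. Psmg1 and Psmg2 (PAC1 and PAC2) form a pair on which the alpha ring is built. Psmg1 had 13.4, 16.0 and 19.2 FPKM in CTR and 8.54, 10.01 and 12.8 FPKM in dKO, with every dKO library below every CTR library. Its log2 fold change was -0.58 (SE 0.11, limma adjusted p = 0.000651). Psmg2 had 16.3, 25.9 and 32.5 FPKM in CTR and 12.1, 13.4 and 18.1 FPKM in dKO. In 5 dKO libraries the value was under the CTR minimum, again that of replicate 4, and the log2 fold change was -0.77 (SE 0.14, 95% interval -1.08 to -0.46, limma adjusted p = 0.000672). The dKO means were 65.0% and 56.1% of the CTR means.

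Psmg3 and Psmg4 (PAC3 and PAC4) form the second pair. Psmg4 had 13.7, 15.3 and 18.2 FPKM in CTR and 9.39, 11.6 and 13.4 FPKM in dKO, with no overlap, a log2 fold change of -0.41 (SE 0.10, limma adjusted p = 0.00433) and a depth of 92 to 176 fragments per library. Psmg3 was low, at 0.63 to 0.97 FPKM in CTR and 0.35 to 0.83 FPKM in dKO, and was not tested. Psmg1, Psmg2 and Psmg4 together amounted to 6.43% to 8.66% of the summed core subunits in CTR and to 4.57% to 5.40% in dKO. Left out of this sum were Psmg3 and Pomp, a chaperone of beta-ring assembly that rose (log2 fold change 0.43). The ranges did not overlap, while the core sum itself did. All of the summed chaperones were called lower, so this separation adds no support to their calls.

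The remaining 3 of these genes encode chaperones of the ATPase base. Psmd9 (p27) had 4.80, 5.14 and 5.86 FPKM in CTR and 3.81, 4.18 and 4.57 FPKM in dKO, without overlap. Its log2 fold change was -0.26 (SE 0.06, limma adjusted p = 0.00291). Psmd10 (gankyrin) rose, with 12.9, 14.6 and 15.8 FPKM in CTR and 14.9, 18.3 and 28.8 FPKM in dKO, a log2 fold change of 0.39 (SE 0.13, limma adjusted p = 0.0240). In 5 dKO libraries its value was above the CTR maximum, and without CTR replicate 2 the adjusted p from limma was 0.0514. Psmd5 was not called, with a log2 fold change of 0.08.

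**Figure D4:**
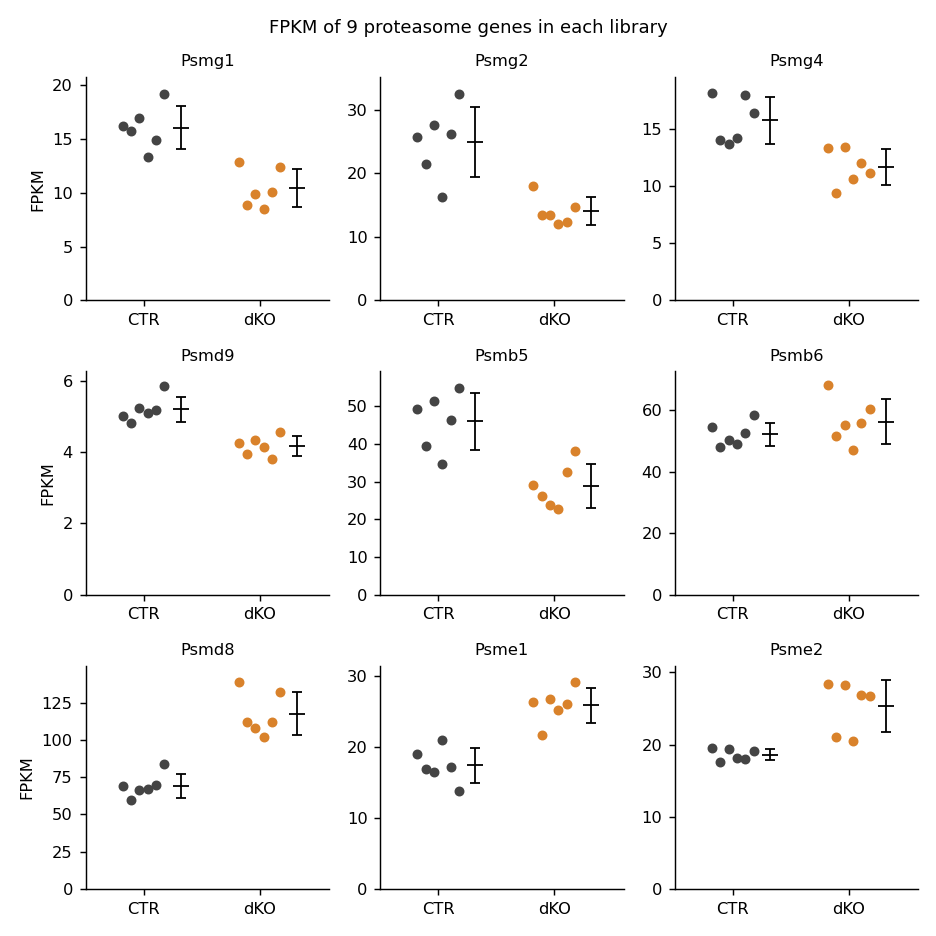
FPKM of 9 proteasome genes in each of the 6 CTR (grey) and 6 dKO (orange) libraries, with the mean and SD beside the points and all axes from 0. The groups are separate for Psmg1, Psmg4, Psmd9, Psmd8, Psme1 and Psme2, while Psmg2 and Psmb5 overlap through CTR replicate 4 and Psmb6 overlaps throughout.

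Both genes of the PA28 cap rose. PA28 alpha, from Psme1, and PA28 beta, from Psme2, form a ring induced by interferon-gamma that opens the core and aids the making of peptides for antigen presentation. Psme1 had 13.8, 17.1 and 20.9 FPKM in CTR and 21.6, 26.2 and 29.2 FPKM in dKO, a log2 fold change of 0.55 (SE 0.09, limma adjusted p = 0.000341). Psme2 had 17.6, 18.6 and 19.5 FPKM in CTR and 20.5, 26.8 and 28.4 FPKM in dKO, a log2 fold change of 0.41 (SE 0.09, limma adjusted p = 0.00158). Neither gene overlapped between the groups. Psme2b, which is 99.0% identical to Psme2 over 795 bases, had 17.2, 18.5 and 20.2 FPKM in CTR and 19.8, 27.8 and 31.3 FPKM in dKO, a log2 fold change of 0.48, and fragments of the pair cannot be assigned with certainty.

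Other measures moved with this rise. Of 11 interferon-response genes 11 rose, and their summed level was 70.0 to 88.0 FPKM in CTR and 234 to 698 FPKM in dKO. The macrophage markers given above rose by 1.12 (Mrc1) to 3.66 (C1qa) on the log2 scale. Of the lymphocyte markers Ptprc, which is found on all white blood cells, rose, while Cd3e, Ms4a1, Cd79a and Nkg7 did not exceed 0.20 FPKM in any library. The endothelial markers rose as well in 9 of 10 cases, from 150 to 233 FPKM in sum in CTR to 280 to 376 FPKM in dKO. The proliferation markers that fell had log2 fold changes of -0.61 (Cdk1 and Birc5) to -1.01 (Ccnb1). The part of each of these in the rise of Psme1 and Psme2, or in the other changes, was not tested. Psme1 shares 39.6% of its exon bases with Emc9 and Psme2 shares 30.8% with Rnf31, each on the other strand.

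The other caps did not pass the test. Psme3 (PA28 gamma), a nuclear activator, had 31.6, 40.5 and 50.7 FPKM in CTR and 28.6, 31.6 and 40.5 FPKM in dKO, a log2 fold change of -0.28 with a 95% interval of -0.52 to -0.04 (limma adjusted p = 0.0519). It passed the test in 8 alternatives, among them without CTR replicate 2 or 4 or dKO replicate 1. Psme4 (PA200) had 15.9, 19.03 and 20.01 FPKM in CTR and 16.8, 18.96 and 19.5 FPKM in dKO, a log2 fold change of 0.00 with a 95% interval of -0.15 to 0.15. Psme2 stood at 37.6% to 57.2% of Psme3 in CTR and at 69.5% to 87.2% in dKO. Psme1 stood at 27.2% to 66.2% of Psme3 in CTR and at 65.0% to 95.3% in dKO, and these ranges overlapped. Psme1 and Psme2 were called higher, so these ratios add no support to their calls. Psmf1 (PI31), described first as an inhibitor of the core, had 4.90, 5.70 and 6.16 FPKM in CTR and 4.40, 4.80 and 5.51 FPKM in dKO. Its log2 fold change was -0.17 (SE 0.07, limma adjusted p = 0.0454), and this call was lost in 15 alternatives, with an adjusted p of up to 0.262 from limma. Leaving out any library other than replicate 1 of either group was among them.

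Of the other members, Psma8, the testis form of an alpha subunit, was at 0.10 to 0.52 FPKM in CTR and 0.25 to 0.74 FPKM in dKO, and Psmb11, of thymus, was listed at 0 in all CTR libraries and at up to 0.01 FPKM in dKO. Neither was tested. Psmc3ip, a partner of meiotic recombinases, and Psme3ip1, which binds PA28 gamma, had log2 fold changes of -0.40 (95% interval -0.85 to 0.04) and -0.07.

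A list of 34 further genes of the ubiquitin-proteasome pathway was followed, of which 32 were tested and 13 called, 4 higher and 9 lower, or 40.6%. Of all genes tested 53.1% were called, 20.4% higher and 32.6% lower. Among factors that control proteasome genes, Nfe2l1 had 78.3, 94.9 and 113 FPKM in CTR and 58.2, 62.6 and 84.0 FPKM in dKO, a log2 fold change of -0.54 (limma adjusted p = 0.000756). Its relative Nfe2l2 (Nrf2) had 64.6, 73.8 and 110 FPKM in CTR and 43.0, 48.9 and 50.8 FPKM in dKO, a log2 fold change of -0.70 (limma adjusted p = 0.000337). The small Maf proteins that pair with them moved both ways, with log2 fold changes of 0.91 for Maff, 0.58 for Mafk and -0.33 for Mafg. The protease Ddi2, which activates Nfe2l1, had a log2 fold change of -0.38 and was not called (limma adjusted p = 0.0759).

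Among assembly factors and proteins bound to the proteasome, Pomp, the chaperone of beta-ring assembly, rose with a log2 fold change of 0.43, opposite to Psmg1, Psmg2 and Psmg4. Ecpas, which links the core to the 19S particle, fell by 0.45 on the log2 scale, and Txnl1, a thioredoxin of the 19S particle, fell by 0.26. The remaining 19S subunits Adrm1, a ubiquitin receptor, and Sem1 had log2 fold changes of 0.03 and 0.10 and were not called. Of the ubiquitin genes, Rps27a fell by 0.46 while Ubb, the most abundant at 403 FPKM in CTR, had a log2 fold change of 0.10. Of the genes that start ubiquitin transfer, Uba6 fell by 0.33 and Uba1 had a log2 fold change of 0.08. The shuttle factor Ubqln1 fell by 0.29, and Nploc4, a cofactor of the unfoldase Vcp, rose by 0.17. The call of Uba6 was lost in 8 alternatives, among them without CTR replicate 1, 3 or 6 or dKO replicate 4 or 6. That of Nploc4 was lost in 7, among them without CTR replicate 2, 4 or 5 or dKO replicate 1, 2 or 3, and those of Txnl1 and Ubqln1 under median-of-ratios scaling.

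**Figure D5:**
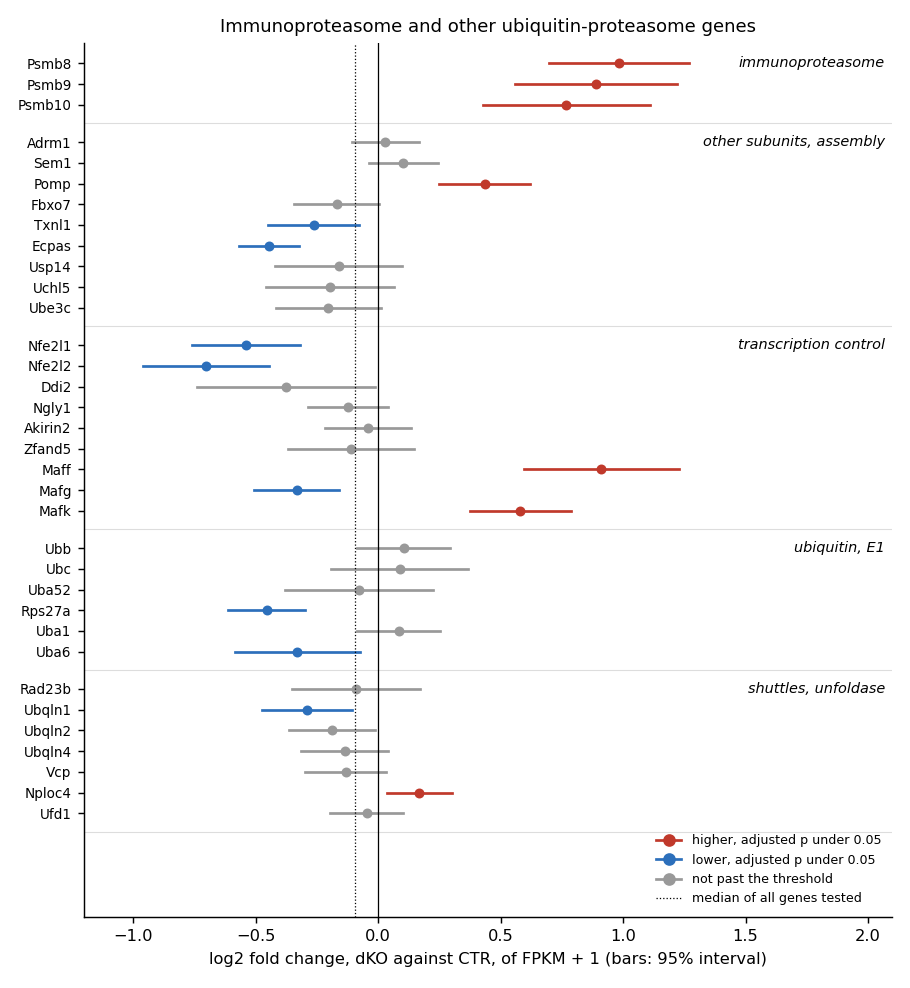
Log2 fold change of FPKM + 1, dKO against CTR (x axis), for the 3 immunoproteasome genes and 31 of the 32 tested genes of the ubiquitin-proteasome pathway, with 95% intervals and 6 libraries per group. Nfe2l1 and Nfe2l2 lie on the lower side at -0.54 and -0.70, Maff and the immunoproteasome genes on the higher side at 0.77 to 0.98.

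Sp1 and Sp3 bind GC boxes, and Nfe2l1 and Nfe2l2 bind AREs. The 250 bases before the start of each gene's canonical transcript were therefore searched for both motifs. In some genes, Psmd9 among them, this start lies inside the annotated gene. Sequences were read from GRCm39, the mm39 build of the deposited table, with starts from the GENCODE annotation. The GC box was searched as GGGCGG or its reverse complement CCGCCC and the ARE as TGACNNNGC or its reverse complement. The promoters shown are some of those of called members in which the window touches no annotated exon and the motifs can be compared. They are Psmb5, with an ARE match and no GC box, Psmd9, with both, and Psmg4 and Psmd8, which changed in opposite directions and each hold a GC box alone. Each runs 5′ to 3′ toward the gene, and capitals mark the motifs.

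Psmb5, chr14:54855482-54855731, minus strand: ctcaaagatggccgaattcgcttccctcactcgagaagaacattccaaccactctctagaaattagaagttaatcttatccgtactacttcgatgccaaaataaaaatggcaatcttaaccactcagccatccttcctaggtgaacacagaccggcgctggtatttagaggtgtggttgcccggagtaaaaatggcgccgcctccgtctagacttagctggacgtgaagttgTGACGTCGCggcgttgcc
Psmd9, chr5:123366003-123366252, plus strand: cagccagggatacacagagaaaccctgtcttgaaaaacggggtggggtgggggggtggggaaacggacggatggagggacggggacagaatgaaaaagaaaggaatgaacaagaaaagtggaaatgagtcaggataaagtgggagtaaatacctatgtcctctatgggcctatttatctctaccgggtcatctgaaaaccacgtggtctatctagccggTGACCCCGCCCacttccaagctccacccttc
Psmg4, chr13:34346687-34346936, plus strand: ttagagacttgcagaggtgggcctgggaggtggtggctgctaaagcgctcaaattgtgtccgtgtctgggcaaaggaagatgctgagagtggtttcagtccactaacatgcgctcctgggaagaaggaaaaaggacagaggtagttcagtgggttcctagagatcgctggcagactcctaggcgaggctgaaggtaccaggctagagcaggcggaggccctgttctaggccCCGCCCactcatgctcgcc
Psmd8, chr7:28880136-28880385, minus strand: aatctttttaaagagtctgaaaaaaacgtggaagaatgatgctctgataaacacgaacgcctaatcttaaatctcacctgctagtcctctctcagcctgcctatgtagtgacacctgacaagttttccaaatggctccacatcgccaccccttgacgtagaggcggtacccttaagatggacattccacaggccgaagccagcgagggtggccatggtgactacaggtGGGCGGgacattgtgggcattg

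In Psmd9 the ARE and the GC box overlap, so that the same bases count for both. A GC box lay before 25 of the 45 tested members, or 55.6%, and before 50.6% of the 11315 protein-coding genes tested for which a window could be read. It lay before 4 of the 8 members that fell, 4 of the 6 that rose and 17 of the 31 not called. Psmg1, with a log2 fold change of -0.58, held none, and Psmg2 held 3. Across the 45 members the number of GC boxes and the log2 fold change had a Spearman correlation of 0.03, and across all 11315 genes one of 0.00, both given as descriptions.

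An ARE match lay before 7 of the 45 tested members, or 15.6%, and before 10.5% of all tested genes. It lay before 4 of the 8 members that fell (Psmb5, Psmd7, Psmd9 and Psmg2) and none of the 6 that rose. It also lay before 3 of the 31 not called (Psmb6, Psmc6 and Psmd12). Among all tested genes 10.1% of those that fell, 10.8% of those that rose and 10.7% of those not called held one. A match is no evidence of binding, and no test was made of these counts.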

How the data were processed

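The 12 RNA-seq libraries were compared as 6 CTR and 6 dKO. The deposited table gives FPKM per gene. Per the labels and the study's methods, reads were mapped to mm39. The submitters' processing notes name Bowtie2 2.2.3, HISAT2 2.1.0, TopHat2 and DESeq2, while the methods name STAR. The counter, annotation and strand setting are not given in the sources used here, and the labels' extraction text speaks of retinas. The members and lists were chosen with earlier results of these data known.

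Genes that reached 1 FPKM in 6 or more of the 12 libraries were tested with limma 3.58.1 in R 4.3.3 (lmFit and eBayes with a trend) on log2(FPKM + 1), with Benjamini-Hochberg adjustment over all 12467 genes. The study's count test was not used because the deposited values are not counts. Whole fragment numbers were recovered from the steps of the FPKM values for 100% of genes and used for depth and as an alternative. Symbols were matched for 96.6% of gene IDs. Of 30 pairs of libraries within a group none agreed within sampling noise. The lowest, median and highest library are given for the 5 called members that rose most and the 5 that fell most, the catalytic subunits, and the activators and inhibitor; Psma5, Psma6, Psmd9, Nfe2l1 and Nfe2l2 were added after their values were seen. Limma was checked on simulated data. A pathway gene and a promoter sequence are not reported here.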

Additional observations from a re-analysis of the deposited data

Results flagged for a closer look

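In 6 of the 72 groups of 6 libraries examined, 1 library lay far from the other 5, where about 3.6 would be so by chance. These groups were the CTR and the dKO values of 36 followed genes, which left out most of the 48 proteasome genes. No flagged group belonged to a member among those followed, and the other members were not examined. Psmb8 was at 5.76 FPKM in dKO replicate 3, against 2.92 to 3.56 FPKM in the other dKO libraries. Psmb9 was at 2.16 FPKM in CTR replicate 4, against 0.90 to 1.37 FPKM. Among the pathway genes, Ecpas was at 9.52 FPKM in dKO replicate 6 (others 10.9 to 11.7), Nfe2l1 at 84.0 FPKM in dKO replicate 5 (others 58.2 to 63.0), Mafk at 22.8 FPKM in dKO replicate 1 (others 17.8 to 19.4) and Ubqln1 at 53.6 FPKM in CTR replicate 6 (others 36.7 to 42.8).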

How the results depend on the processing

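The 14 called members became 23 with array weights, or 51.1%, where 62.7% of all genes tested were called. With the replicate block they became 24, or 53.3%, where 55.8% of all genes were called. With no filter 12 members were called, or 25.0%, where 26.3% of all genes were. The 6 higher members became 13 under median-of-ratios scaling and 10 with the replicate block, and the 8 lower members became 5 and 14 in these settings, 13 under quantile normalization and 17 with array weights. Over all 12467 genes tested, 3176 were higher and 3061 lower under median-of-ratios scaling, and 2675 and 4280 with the replicate block. Under quantile normalization 3469 were lower, and with array weights 4920. The 13 called pathway genes became 21 with array weights, or 65.6%, where 62.7% of all genes were called. Leaving out 1 library gave 11 to 19 called members, 5 to 7 higher, 5 to 13 lower, and 12 to 15 pathway genes. Of all genes tested 47.0% to 54.9% were called in these runs. The cause was not tested. The log2 fold change of Psme4, 0.00, changed sign when rescaled to TPM (-0.048) and when recovered fragments were fitted by limma-voom (-2.29e-06), and lay between -0.041 and 0.026 with 1 library left out. Of the 14 called members 10 kept their call and none changed sign over 25 alternatives (24 for Psmd9, which the strictest filter removed). Limma-voom on the recovered fragments called 15 members.

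Replicate numbers are shared between the groups, but the correlation of same-numbered libraries' deviations from their group means ranged from -0.11 to 0.57, and only replicates 1 and 4 matched their own number best. The numbers were not taken as pairs. FPKM carry no library scaling beyond depth, and the number of mice behind each library, the strand setting and the annotation set limits on single genes.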
